A study of Drosophila melanogaster with 103 samples.

Results

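Mitochondrial protein synthesis and complex I of the respiratory chain depend on genes of the nuclear genome, and 113 of them were examined here for chromatin marks and chromatin proteins in 3 cultured lines of Drosophila melanogaster. The group holds every protein-coding gene whose symbol starts with mRpL, mRpS or ND-, which is 113 of the 13946 protein-coding genes of the gene table used. Of these, 47 are mRpL genes, for proteins of the large subunit of the mitochondrial ribosome. Another 26 are mRpS genes, for proteins of its small subunit. The remaining 40 are ND- genes, for subunits of NADH:ubiquinone oxidoreductase (complex I) and for proteins named after such subunits.

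The mitochondrial ribosome translates the few proteins that the mitochondrial genome still encodes, among them core subunits of complex I, so both sets of nuclear genes feed the same machinery. Complex I takes electrons from NADH, passes them along iron-sulfur clusters to ubiquinone and pumps protons across the inner mitochondrial membrane. Genes of this kind are read in nearly every cell and are classed as housekeeping genes. Polycomb group (PcG) proteins are best known for the opposite task, the stable silencing of developmental genes, and trithorax group proteins for keeping such genes active.

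Chromatin immunoprecipitation with sequencing was done in 103 libraries. D17 (ML-DmD17-c3, from imaginal disc) gave 41, Kc167 (embryonic) 21 and S2 (S2-DRSC, embryonic) 41, each line untreated, with 2 libraries from different flasks for every antibody and 1 input library. The files used here are 50 peak lists, 1 for each antibody and line, 20 for D17, 10 for Kc167 and 20 for S2, and they hold no values per library. The depth of the libraries is therefore unknown, replicate error is not known, and all comparisons below are descriptions without a test.

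A gene was said to have a peak when a peak overlapped its annotated body widened by 500 bp on each side by at least 1 bp. The strength of a peak is given as its fold percentile, the rank of the authors' fold enrichment within its own list from 0 to 100. Fold values were never compared between lists. Intervals are exact (Clopper-Pearson) 95% binomial intervals and cover counting error only. As a check of the labels, H3K27ac was present at 6 of 8 blood cell genes in D17, 5 of 8 in Kc167 and 7 of 8 in S2. At imaginal disc genes it was present at 6 of 8 in D17, 1 of 8 in Kc167 and 3 of 8 in S2, so blood cell genes carried the mark in all 3 lines and disc genes most often in D17.

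Position bears on every value that follows. The 113 genes had a median length of 1004 bp, against 2161 bp over all genes, and ranged from 390 bp at mRpL34 to 41305 bp at ND-15. Another protein-coding gene lay within the window of 106 of them (93.8%), against 80.3% of all genes. Most peaks near these genes can therefore also be assigned to a neighbour. They were spread over the genome, with 21 on 2L, 20 on 2R, 26 on 3L, 25 on 3R, 1 on chromosome 4 (ND-49), 20 on X and 0 on Y. Because a short gene has a smaller window, shares are also given for genes of at most 2000 bp, a limit chosen after the data were seen. It keeps 104 of the 113 genes and 6535 of all genes.

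Nearly all of the group carried the marks of active genes. H3K4me3, a mark of active promoters, was present at 106 genes (93.8%, interval 87.7% to 97.5%) in D17, where 52.4% of all genes had it, and at 106 (93.8%) in S2, where 52.3% of all genes had it. H3K27ac, the acetylation of active promoters and enhancers, was present at 102 genes (90.3%) in D17, against 58.7% of all genes. In Kc167 it was present at 106 (93.8%), against 55.5% of all genes, and in S2 at 103 (91.2%), against 55.4%. H3K4me2 was present at 106 genes (93.8%) in D17 and 105 (92.9%) in S2, against 65.6% and 55.1% of all genes. H3K36me3, laid down along transcribed gene bodies, was present at 105 genes (92.9%) in D17, 105 (92.9%) in Kc167 and 104 (92.0%) in S2, against 59.5%, 56.3% and 55.2% of all genes. The share of the group stood above that of all genes in each of these lists. H3K27ac in all 3 lines was found at 101 genes (89.4%), against 49.1% of all genes, and H3K4me3 in both lines where it was profiled at 106 (93.8%), against 50.4%.

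The H3K4me3 peaks were also somewhat higher in their lists than those of other genes. Their median fold percentile was 71.1 in D17 and 79.4 in S2, against 64.8 and 66.3 over all genes with a peak. H3K27ac stood at 79.3, 59.0 and 72.5 in D17, Kc167 and S2, against 77.7, 69.7 and 72.7, so it was close to all genes in D17 and S2 and lower in Kc167. H3K36me2 differed in its spread between lines. It was present at 23 genes (20.4%) in D17, against 24.0% of all genes, and at 93 (82.3%) in S2, against 56.0%. The D17 list of this mark held 1620 peaks and the S2 list 2872. With the S2 list shortened to the length of the D17 list, 15 genes had the mark in both lines (13.3%, against 15.7% of all genes), 8 in D17 alone (7.08%, against 8.32%) and 39 in S2 alone (34.5%, against 21.8%).

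**Figure D1:**
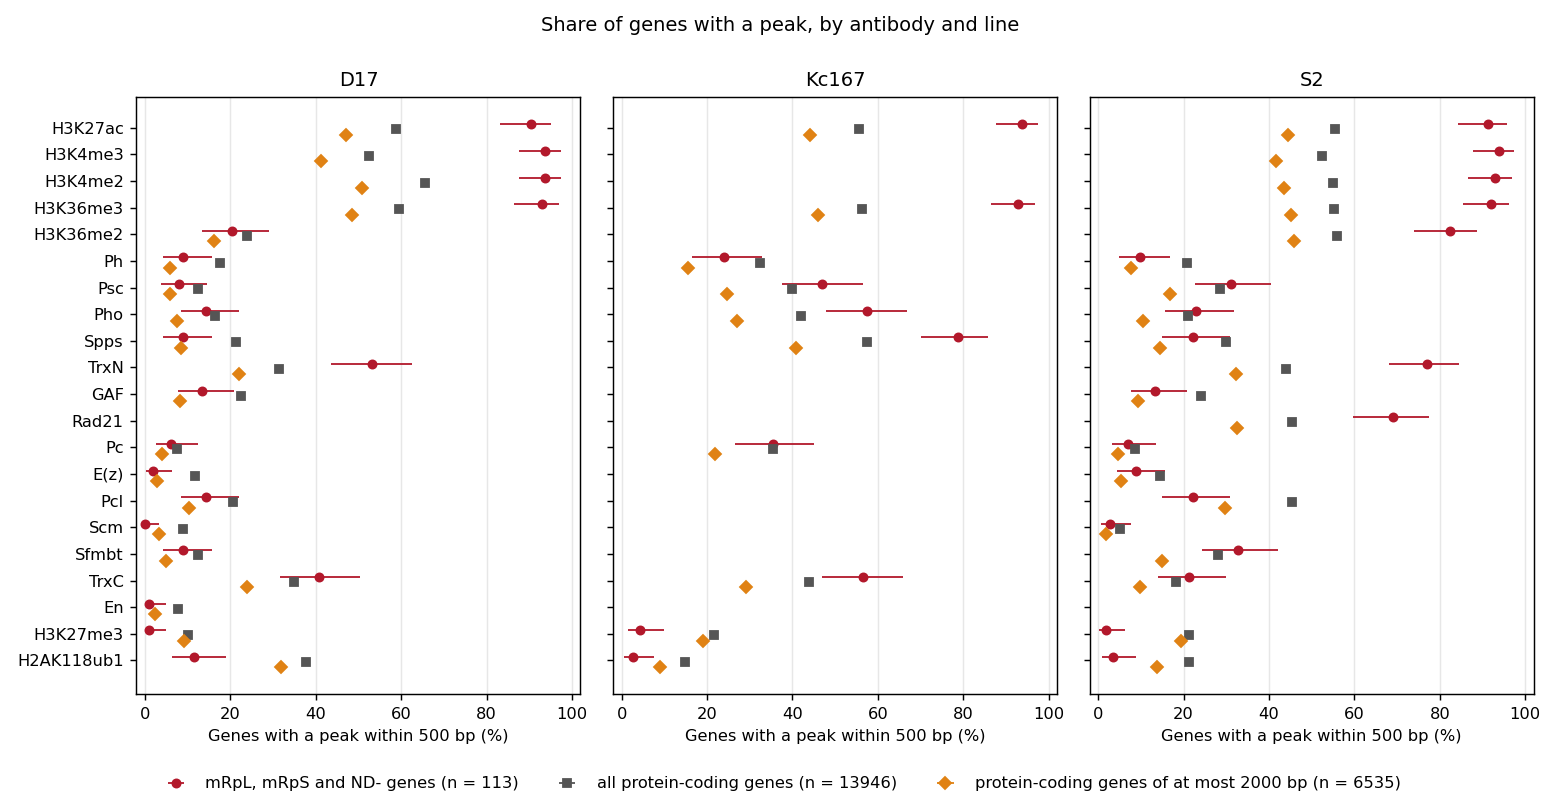
Share of genes (horizontal axis, %) with a peak within 500 bp for each antibody (rows) in D17, Kc167 and S2 (panels), for the 113 mitochondrial ribosome and complex I genes (red circles, with exact 95% intervals), all 13946 protein-coding genes (grey squares) and the 6535 genes of at most 2000 bp (orange diamonds). The red circles lie above 90% for H3K27ac and H3K4me3 and below 5% for H3K27me3.

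Silencing marks were rare at these genes. H3K27me3, the mark of Polycomb repressive complex 2 (PRC2), was present at 1 gene (0.885%) in D17, 5 (4.42%) in Kc167 and 2 (1.77%) in S2, against 10.1%, 21.7% and 21.2% of all genes. H2AK118ub1, the histone ubiquitination set by Polycomb repressive complex 1 (PRC1), was present at 13 genes (11.5%) in D17, 3 (2.65%) in Kc167 and 4 (3.54%) in S2, against 37.8%, 14.9% and 21.3%. Among genes of at most 2000 bp, H3K27me3 was present at 0.962%, 4.81% and 1.92% of the group in D17, Kc167 and S2, against 9.10%, 19.0% and 19.4% of all such genes. H2AK118ub1 was present at 11.5%, 0.962% and 1.92%, against 31.8%, 9.01% and 13.8%. Both silencing marks were thus less frequent in the group than over all genes, with and without long genes.

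TrxN and Rad21 were found more often at these genes than over all genes, and Spps so in 1 line of 3, where the direction depended on the length of the list. TrxN, the N-terminal part of the trithorax protein, was present at 60 genes (53.1%, interval 43.5% to 62.5%) in D17, against 31.5% of all genes, and at 87 (77.0%, interval 68.1% to 84.4%) in S2, against 44.0%. Rad21, a subunit of the cohesin ring that holds chromosomes together and organises loops, was profiled in S2 and was present at 78 genes (69.0%), against 45.3%. Spps, a DNA-binding protein of the Sp1 and KLF family that takes part in PcG recruitment, was present at 89 genes (78.8%) in Kc167, against 57.4% of all genes. In D17 it was present at 10 (8.85%) and in S2 at 25 (22.1%), against 21.3% and 30.0%. The higher share of Spps in Kc167 turned round with lists shortened to equal length over the lines, at 27.4%, against 32.8% of all genes, and with the higher-scoring 50% of the list, at 29.2%, against 33.6%. TrxN in S2 was still above all genes with equal list lengths, at 54.0%, against 32.5%.

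PcG proteins were present at a minority of the group in D17 and S2. Ph, the polyhomeotic subunit of PRC1, was present at 10 genes (8.85%) in D17, 27 (23.9%) in Kc167 and 11 (9.73%) in S2, against 17.6%, 32.5% and 20.7% of all genes. Psc, another PRC1 subunit, was present at 9 genes (7.96%) in D17, 53 (46.9%) in Kc167 and 35 (31.0%) in S2, against 12.5%, 40.0% and 28.5%. Pho, the DNA-binding subunit of the Pho-repressive complex, was present at 16 (14.2%), 65 (57.5%) and 26 genes (23.0%) in D17, Kc167 and S2, against 16.4%, 42.1% and 21.0%. With equal list lengths Psc was at 15.9% of the group in Kc167 and 16.8% in S2, below the 19.3% of all genes in each of these lines, so its direction turned, while Pho in Kc167 was still above all genes at 24.8%, against 21.3%. GAF, the GAGA factor that opens promoters and binds many PcG sites, was present at 15 genes (13.3%) in D17 and 15 (13.3%) in S2, against 22.4% and 24.0%.

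The lower shares of Ph, GAF and Spps were not seen among short genes, except for Spps in D17. Of the 104 genes of the group that are at most 2000 bp long, 7.69% had Ph in D17, 22.1% in Kc167 and 8.65% in S2, against 5.85%, 15.5% and 7.73% of all genes of that length. GAF was present at 12.5% of them in D17 and 12.5% in S2, against 8.29% and 9.35%. Spps was present at 7.69% in D17 and 22.1% in S2, against 8.49% and 14.5%. The other factors stood above short genes in every list. TrxN was at 52.9% in D17 and 77.9% in S2, against 22.0% and 32.2%, Rad21 at 69.2%, against 32.4%, and Spps in Kc167 at 77.9%, against 40.8%. Pho was at 15.4%, 56.7% and 23.1% in D17, Kc167 and S2, against 7.61%, 27.1% and 10.5%. Psc was at 8.65%, 47.1% and 30.8%, against 5.95%, 24.8% and 16.7%. For Pho and Psc in D17 the group was thus below all genes and above all short genes. The interval for Psc among its short genes, 4.03% to 15.8% on 9 genes, holds the 5.95% of all short genes. That for Pho, 9.06% to 23.8% on 16 genes, lies above the 7.61%.

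The remaining antibodies recognised further subunits of the same complexes, TrxC and En. Pc, the PRC1 subunit that reads H3K27me3, was present at 7 genes (6.19%) in D17, 40 (35.4%) in Kc167 and 8 (7.08%) in S2, against 7.38%, 35.5% and 8.68% of all genes. E(z), the PRC2 enzyme, was present at 2 genes (1.77%) in D17 and 10 (8.85%) in S2, against 11.6% and 14.4%. The partner of E(z) in PRC2, Pcl, was present at 16 (14.2%) and 25 genes (22.1%) in D17 and S2, against 20.5% and 45.4%. Scm, which links PcG complexes, was at 0 genes in D17 and at 3 (2.65%) in S2, against 8.91% and 5.12%. The 0 of 113 genes in D17 has an upper exact bound of 3.21%. Each of these 4 proteins was less frequent in the group than over all genes in every list, by little for Pc. Among genes of at most 2000 bp most of these directions turned. Pc was then at 6.73%, 35.6% and 7.69% in D17, Kc167 and S2, against 3.87%, 21.8% and 4.53%, E(z) in S2 at 7.69%, against 5.37%, and Pcl in D17 at 12.5%, against 10.3%. Scm in S2 was at 1.92%, against 1.78%. The group was still below for E(z) in D17, at 0.962%, against 2.92%, for Pcl in S2, at 21.2%, against 29.7%, and for Scm in D17, at 0%, against 3.29%. Sfmbt, the partner of Pho, was present at 10 genes (8.85%) in D17 and 37 (32.7%) in S2, against 12.5% and 28.0%. TrxC, the C-terminal part of trithorax, was present at 46 (40.7%), 64 (56.6%) and 24 genes (21.2%) in D17, Kc167 and S2, against 34.8%, 43.8% and 18.3%. En, the Engrailed homeodomain repressor, was profiled in D17 and was present at 1 gene, mRpL50 (0.885%), against 7.83%.

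Where a factor peak was present, it was usually of low or middle rank. The median fold percentile of Ph was 33.6 in D17, 49.8 in Kc167 and 34.4 in S2, against 61.0, 56.8 and 57.5 over all genes with a Ph peak. Spps stood at 19.6, 38.1 and 40.0 in D17, Kc167 and S2, against 57.2, 56.8 and 55.1. GAF stood at 44.2 in D17 and 42.7 in S2, against 64.6 and 63.6. These 3 factors stood lower at the group than elsewhere in every list. TrxN, the commonest factor in D17, stood at 42.9 in D17 and 52.7 in S2, against 54.8 and 59.9, and Rad21 at 56.6, against 65.5. Psc in D17 stood higher at the group, at 64.7, against 62.5, on 9 genes. Among genes of at most 2000 bp the Ph percentiles of the group were 33.6, 46.7 and 34.4, against 52.5, 42.5 and 44.5 of all such genes, so that in Kc167 the group was then the higher of the pair. At that length Pho stood at 42.1, 56.2 and 50.2 in D17, Kc167 and S2, against 46.0, 51.2 and 52.9. Psc stood at 64.7, 46.5 and 41.5, against 61.6, 52.4 and 52.1. The group was thus higher for Pho in Kc167 and for Psc in D17.

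The question of which factors lie beside active marks was taken up next, among genes with H3K27ac and, in D17 and S2, also H3K4me3. Of the group, 102 genes (90.3%) met this in D17, 106 (93.8%) in Kc167 and 103 (91.2%) in S2, against 50.1%, 55.5% and 49.6% of all genes. In D17, 56.9% of the 102 genes had TrxN (interval 46.7% to 66.6%), against 57.5% of all active genes. TrxN was thus as frequent as at other active genes, and the other factors were less so. Spps was at 9.80% of them, against 30.6%, Ph at 9.80%, against 25.3%, and GAF at 14.7%, against 30.5%. Pho was at 15.7%, against 25.3%, and Psc at 8.82%, against 15.4%. None of the 6 factors profiled in D17 was present at 38 of the 102 genes (37.3%), against 26.4% of all active genes.

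In Kc167, Spps was present at 84.0% of the 106 active genes of the group, against 88.3% of all active genes. Pho was at 61.3%, against 68.1%, Psc at 50.0%, against 60.1%, and Ph at 25.5%, against 49.5%. None of the 4 factors profiled there was present at 12.3%, against 9.35%. Spps was the commonest factor there for the group as for all active genes. In S2, TrxN was present at 82.5% of the 103 active genes, against 77.9%, and Rad21 at 73.8%, against 79.5%. Psc was at 33.0%, against 43.9%, Pho at 25.2%, against 34.0%, Spps at 24.3%, against 44.2%, GAF at 14.6%, against 32.9%, and Ph at 10.7%, against 29.1%. None of the 7 factors was present at 10.7%, against 7.29%. So beside active marks the shares of all active genes for TrxN and Rad21 lay within the intervals of the group. They lay above them for Ph and GAF in every list, for Spps in D17 and S2, for Pho in D17 and, by a narrow margin, for Psc in Kc167 and S2.

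Setting the group beside active genes of at most 2000 bp removed most of these gaps. In D17, Ph was at 8.33% of the 96 active genes of the group that are this short, against 9.12% of 2589 active genes of that length. GAF was at 13.5%, against 12.6%, Psc at 9.38%, against 9.31%, Pho at 16.7%, against 15.1%, and TrxN at 56.2%, against 51.4%. In S2, Ph was at 9.28% of 97 genes, against 12.9%, GAF at 13.4%, against 15.1%, Psc at 33.0%, against 33.2%, Spps at 23.7%, against 26.4%, and Rad21 at 74.2%, against 72.6%. The largest gaps among these short genes were for TrxN in S2, Ph in Kc167 and Spps in D17. TrxN in S2 was at 83.5%, against 73.5%, a wider gap than the 82.5% against 77.9% without the length limit. Ph in Kc167 was at 23.5% of 98 genes, against 30.6%. Spps in D17 was at 8.33%, against 14.2%. The share with none of the factors was 38.5% in D17, against 38.4%, so in most lists the group stood close to other short active genes.

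**Figure D2:**
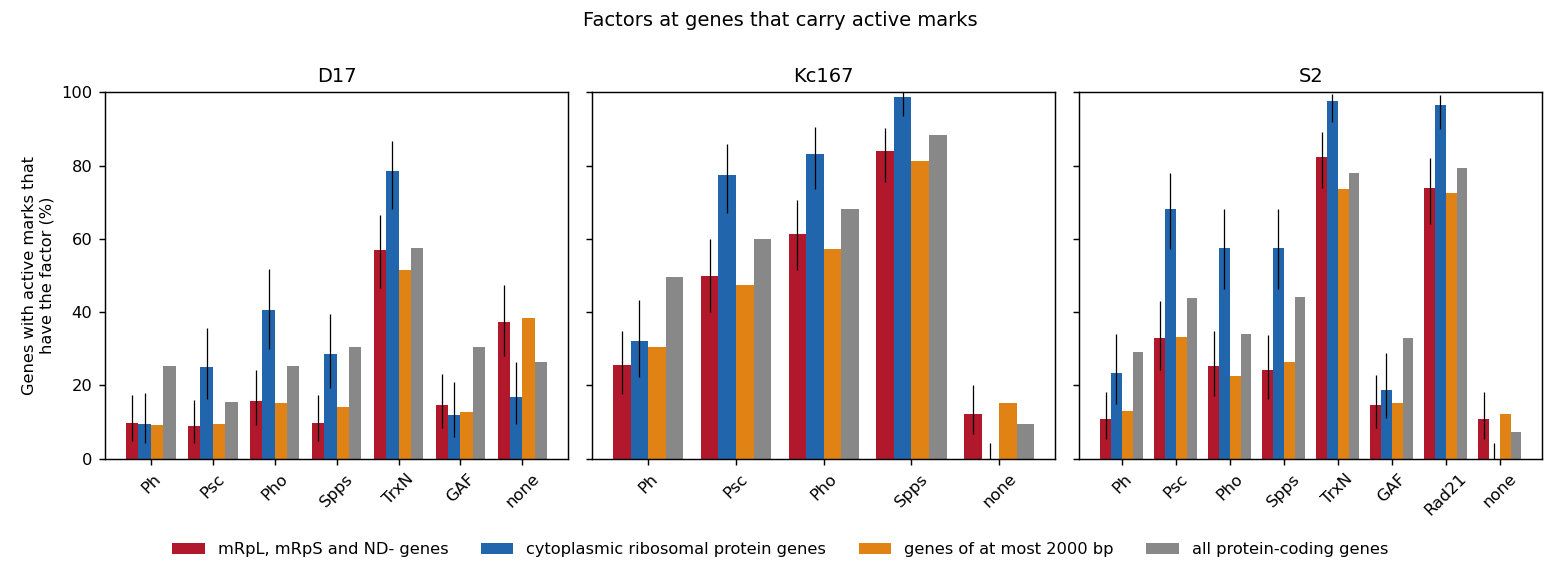
Share of genes with active marks (vertical axis, %) that have each factor within 500 bp, or none of those profiled, in D17, Kc167 and S2 (panels), for the mitochondrial ribosome and complex I genes (red), cytoplasmic ribosomal protein genes (blue), all genes of at most 2000 bp (orange) and all protein-coding genes (grey), with exact 95% intervals on the red and blue bars. In most groups of bars the red one stands near the orange one, and the blue bars stand above them for Psc, Pho and TrxN.

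The cytoplasmic ribosomal protein genes, the other large set of ribosome genes, had more factors beside the same marks. In D17, Pho was at 15.7% of the active genes of the group and at 40.5% of the active cytoplasmic ribosomal protein genes, Psc at 8.82% and 25.0%, Spps at 9.80% and 28.6%, and TrxN at 56.9% and 78.6%. In S2, Psc was at 33.0% and 68.2%, Pho at 25.2% and 57.6%, Spps at 24.3% and 57.6%, and Rad21 at 73.8% and 96.5%. The order was the same in Kc167, where Psc was at 50.0% and 77.4% and Pho at 61.3% and 83.3%. Ph and GAF did not follow this order throughout, since in D17 Ph was at 9.80% and 9.52% and GAF at 14.7% and 11.9%. With genes of at most 2000 bp alone, Psc in S2 was at 33.0% of the group and 65.2% of cytoplasmic ribosomal protein genes, and Pho at 24.7% and 53.6%. Active genes with none of the factors made up 12.3% of the group and 0% of cytoplasmic ribosomal protein genes in Kc167, and 10.7% and 0% in S2.

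The factors occurred in few common combinations. In D17, 38 of the 102 active genes of the group had none of the factors and 33 had TrxN alone (32.4%, against 22.9% of all active genes). In S2 the commonest combination was TrxN with Rad21 and nothing else, at 26 of 103 genes (25.2%, against 14.5%), followed by TrxN alone at 14 (13.6%, against 7.09%). In Kc167 all 4 factors occurred together at 23 of 106 genes (21.7%, against 34.6%) and Psc, Pho and Spps without Ph at 22 (20.8%, against 1315 of 7740 active genes). In S2, 71 of 85 active genes of the group with TrxN also had Rad21 (83.5%, against 87.9% of all active genes with TrxN). With or without TrxN, Rad21 was at 73.8% of the active genes of the group and 79.5% of all active genes. The overlap of TrxN and Rad21 was thus no greater than over all active genes. Ph and Psc, both subunits of PRC1, met at 0 of the 10 active genes with Ph in D17. The share was 31.8% of all active genes with Ph there, and short genes were not taken apart. Psc was at 9 of the 102 active genes of the group in D17 (8.82%). At so low a share, 0 of 10 cannot show that Ph and Psc avoid each other. A skipped number of the D17 Psc list touched 13 genes of the group, all without a Psc peak (11.5%, against 7.14% of all genes touched). Ph and Psc were compared in the other lines as well. They met at 24 of 27 in Kc167 (88.9%, against 76.9%) and at 8 of 11 in S2 (72.7%, against 67.1%).

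**Figure D3:**
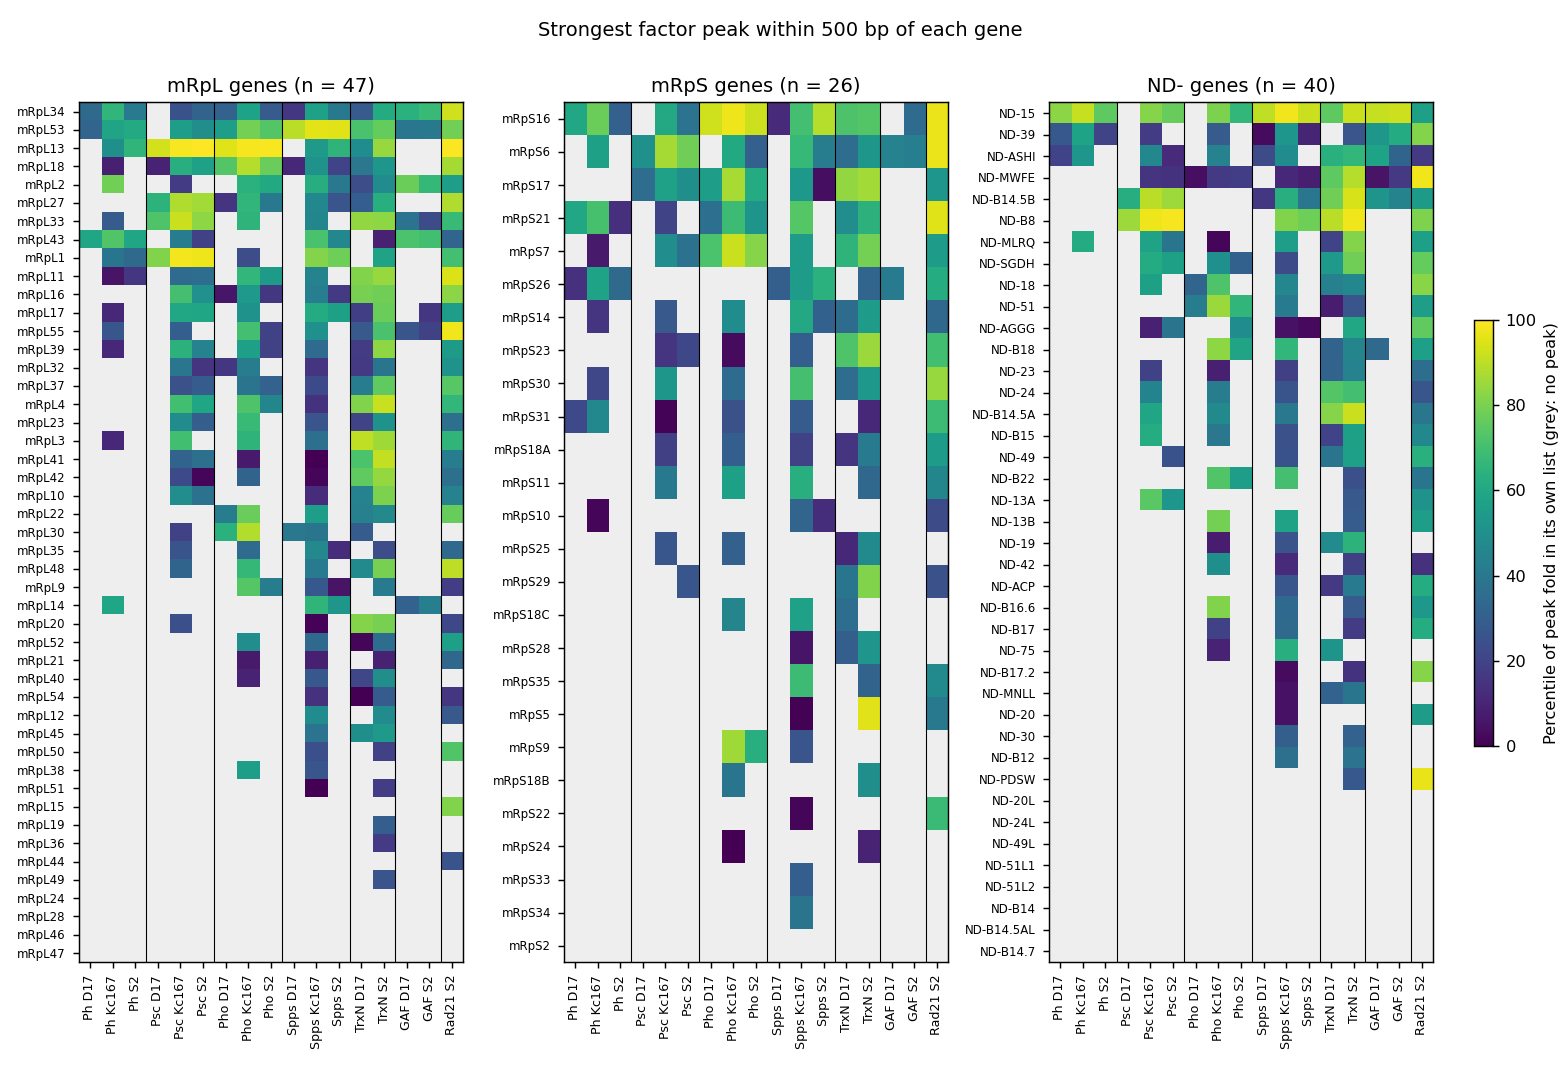
Fold percentile (colour scale, 0 to 100) of the strongest peak of each factor within 500 bp of each of the 47 mRpL, 26 mRpS and 40 ND- genes (rows, ordered by the number of factor lists with a peak), with 1 column per factor and line and grey where there is no peak. The Spps column of Kc167, the TrxN columns and the Rad21 column are filled for most genes, and the Ph and GAF columns for few.

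Between the lines, GAF lay largely at the same genes in D17 and S2, as it did over all genes. Spps and Pho in Kc167 alone, and TrxN in S2 alone, were commoner in the group than over all genes. These gaps were smaller with lists of equal length. TrxN was present in both D17 and S2 at 57 genes (50.4%, against 30.6% of all genes), in D17 alone at 3 (2.65%, against 0.875%) and in S2 alone at 30 (26.5%, against 13.4%). With lists of equal length these numbers became 53, 7 and 8 (46.9%, 6.19% and 7.08%, against 27.8%, 3.65% and 4.73%). GAF was present in both lines at 13 genes (11.5%, against 20.3%), in D17 alone at 2 (1.77%, against 2.14%) and in S2 alone at 2 (1.77%, against 3.79%). Over all genes GAF was in both lines at 2825, in D17 alone at 299 and in S2 alone at 528, so sharing between lines was not particular to the group. Spps was present in all 3 lines at 8 genes (7.08%, against 18.5%) and in Kc167 alone at 62 (54.9%, against 26.5%). The Kc167 list of Spps held 9661 peaks, while those of D17 and S2 held 4710 and 5287, and with equal list lengths the 62 genes became 13 (11.5%, against 7.33%). Pho was present in all 3 lines at 12 genes (10.6%, against 11.5%) and in Kc167 alone at 36 (31.9%, against 19.3%), which became 6 with equal list lengths (5.31%, against 4.97%).

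Ph was present in all 3 lines at 8 genes (7.08%, against 14.1%), namely ND-15, ND-39, mRpL34, mRpL43, mRpL53, mRpS16, mRpS21 and mRpS26. Psc was present in all 3 lines at 9 genes (7.96%, against 10.5%), namely ND-B14.5B, ND-B8, mRpL1, mRpL13, mRpL18, mRpL27, mRpL33, mRpS17 and mRpS6. None of these 8 and 9 genes had both proteins in every line, which follows from D17, where no gene of the group had both. With Ph at 10 and Psc at 9 genes of the group in D17, this cannot show that the proteins avoid each other. Over all genes 671 had both, which is 34.1% of the 1966 with Ph and 45.8% of the 1466 with Psc in every line.

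Whether a peak lay nearest to an end of the gene itself or of a neighbour was also examined, from the summits of the narrow peaks. The gene table has no strand, so an end can be a start or a stop. Of the genes with a TrxN peak, the nearest annotated gene end was the gene's own at 55.0% in D17 and 59.8% in S2, against 55.6% and 56.9% of all genes with such a peak. For Rad21 it was 55.1%, against 59.7%, and for H3K4me3 58.5% in D17 and 55.7% in S2, against 54.7% and 53.5%. The gap to all genes was larger for several other proteins, among them Ph, GAF and Sfmbt. The nearest end was the gene's own at 2 of 10 genes with Ph in D17 (20.0%, against 70.6%), at 29.6% in Kc167 (against 65.6%) and at 27.3% in S2 (against 71.1%). For GAF it was 3 of 15 genes (20.0%) in each of D17 and S2, against 68.4% and 68.1%. Among genes of at most 2000 bp the Ph shares were 25.0%, 30.4% and 33.3% in D17, Kc167 and S2, against 46.3%, 46.4% and 53.7%, and the GAF shares 23.1% and 23.1% in D17 and S2, against 43.9% and 46.3%. Sfmbt was at 20.0% in D17 and 29.7% in S2, against 68.3% and 63.1%, and among genes of at most 2000 bp at 12.5% and 25.0%, against 43.9% and 46.3%. Most Ph, GAF and Sfmbt summits counted for the group therefore lay closer to a neighbour. Spps was at 40.0% in each of D17 and S2, against 68.8% and 67.0%, Pho in D17 at 37.5%, against 65.9%, and Psc in S2 at 42.9%, against 61.2%. Among genes of at most 2000 bp these 4 shares were 50.0%, 43.5%, 37.5% and 37.5%, against 50.8%, 55.5%, 52.7% and 51.9%.

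TrxN and Rad21 summits lay close to gene ends. Their median distance to the nearer end of the gene itself was 71.5 bp for TrxN in D17, 77.0 bp for TrxN in S2 and 74.5 bp for Rad21, against 113, 121 and 109 bp over all genes with a peak. For Ph it was 791 bp in D17 and 468 bp in Kc167, against 585 and 408 bp, and 251 bp in S2, against 446 bp. For a summit inside a gene this distance is bounded by gene length, and the group is shorter than all genes. These distances were not taken among short genes alone.

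**Figure D4:**
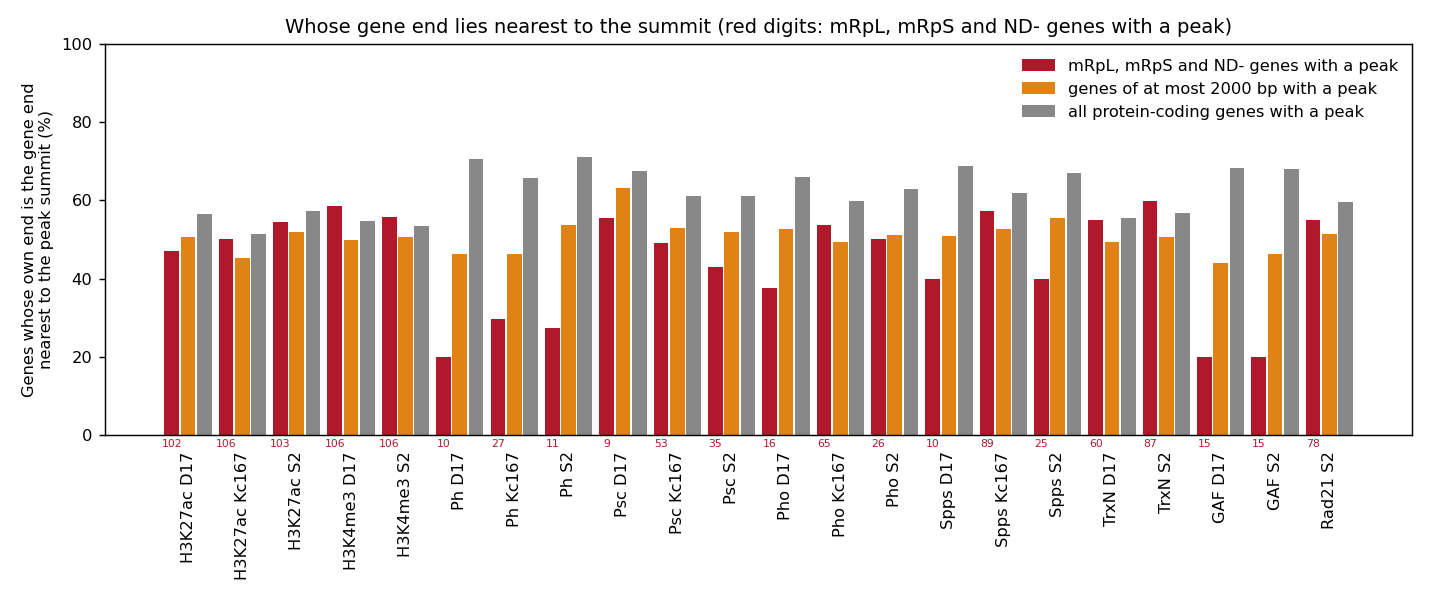
Share of genes with a peak (vertical axis, %) for which the annotated gene end nearest to the summit of the strongest peak belongs to the gene itself, for each antibody and line, in the mitochondrial ribosome and complex I genes (red), genes of at most 2000 bp (orange) and all genes (grey), with the number of red genes under each bar. The red bars for Ph and GAF are at or below 29.6%, under the orange and grey bars beside them.

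A small number of genes carried strong factor peaks, and mRpL13 carried the highest. This gene of the large mitochondrial ribosomal subunit lies on 2L (dm6, 18858028 to 18859248), shares an end with CG10602 and lies beside tup, the tailup gene for a LIM-homeodomain transcription factor. Its Psc peak had a fold of 12.64 in D17, 33.12 in Kc167 and 55.47 in S2, at percentiles 93.3, 99.0 and 99.7 of the 3 lists. Its Pho peak had folds of 11.72, 37.76 and 52.74 in D17, Kc167 and S2, at percentiles 95.1, 98.7 and 98.9, and its Rad21 peak in S2 stood at percentile 99.3. These were the highest values of the group for Psc and Pho in every line and for Rad21. The Psc summits lay 87 to 95 bp from the shared end of mRpL13 and CG10602. The Pho summit of Kc167 lay 128 bp from the nearest end, which there was that of tup. The gene also carried H3K4me3 at percentiles 65.8 in D17 and 91.4 in S2. In Kc167 an H3K27me3 peak of 77572 bp started at 18859669, just past its end.

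ND-B8, for an accessory subunit of complex I, came next for Psc in D17 and S2 and had the highest TrxN peak in S2. It lies on 2L (4454626 to 4455207) between Secp43 and Gs1l. Psc stood at percentiles 85.4, 97.6 and 98.5 in D17, Kc167 and S2, and TrxN at 89.5 in D17 and 97.9 in S2. Pho, Ph and GAF had no peak there in any list. Its Psc summits lay 61 to 63 bp from an end of Secp43 and 110 to 112 bp from an end of ND-B8. mRpL1, on 3R (8301440 to 8302770), had Psc at percentiles 81.2, 98.4 and 97.3 in D17, Kc167 and S2. In Kc167 it thus ranked above ND-B8. Its summits lay 41 to 61 bp from its own end. In D17 the highest TrxN peak of the group was at mRpL3, at percentile 90.3, with its summit 20 bp from an end of mRpL3.

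Other genes combined many factors of lower rank. mRpL53, which shares an end with CG33155, had 5 of 6 factors in D17, all 4 in Kc167 and all 7 in S2. Spps was its strongest, at percentiles 89.5, 95.8 and 95.6 in D17, Kc167 and S2, with summits 74 to 89 bp from the shared end. mRpS16 had all 7 factors in S2, with Pho at percentile 92.7 in D17, 97.3 in Kc167 and 92.5 in S2. The nearest gene end was that of cg, the zinc finger gene combgap, for 14 of its 15 factor peaks and that of mRpS16 for Rad21. mRpL34, the shortest gene of the group, had 5 factors in D17 and all 7 in S2, and 14 of its 16 summits lay nearest to Dg, the dystroglycan gene. mRpS6 had all 4 factors in Kc167, where its Psc peak stood at percentile 86.5, and all its 13 factor summits lay nearest to Cip4.

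ND-B14.5B had 4 of 6 factors in D17, and Psc and TrxN were the strongest. Psc stood at percentiles 62.4, 89.8 and 85.2 in D17, Kc167 and S2, and TrxN at 78.3 in D17 and 94.1 in S2. The summits of these peaks lay 43 to 70 bp from its own end, whereas both GAF summits lay nearest to toc.

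ND-15 had the highest Ph peaks of the group, and they do not lie near its ends. Its annotated span of 41305 bp on 2L (114726 to 156030) overlaps 12 other genes. Its Ph peaks stood at percentiles 82.6, 91.1 and 75.3 in D17, Kc167 and S2, with summits at least 17238 bp from either of its ends and nearest to Gs1, the gene of a glutamine synthetase. Its GAF peaks, at percentile 91.4 in D17 and 92.3 in S2, lay at least 14610 bp from its ends. The Psc, Pho, TrxN and Rad21 summits counted for it lay 65 to 89 bp from its own end. Without ND-15, Ph was present at 9 of 112 genes (8.04%), 26 (23.2%) and 10 (8.93%) in D17, Kc167 and S2, and GAF at 12.5% in each of D17 and S2.

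H3K27ac was absent in all 3 lines at 7 genes, and the same 7 had no H3K4me3 in D17 or S2. Of these, 6 are the ND- paralogues, genes whose symbol is that of another ND- gene followed by L, namely ND-20L, ND-24L, ND-49L, ND-51L1, ND-51L2 and ND-B14.5AL. The other is mRpL47, which had a peak in 0 of 50 lists. In 41 of the 50 lists the window of mRpL47 lay inside a stretch where the running number of the peak names skips, so a peak may have been removed there, and the absence of peaks at mRpL47 cannot be read. The 6 paralogues had none of the 7 factors in any line. Peaks were found in 1 to 3 of the 20 D17 lists, 0 to 1 of the 10 Kc167 lists and 0 to 3 of the 20 S2 lists, against medians of 6, 5 and 8 lists for the other 34 ND- genes.

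The marks that the paralogues did have differed among them. ND-20L, on 3R (29515717 to 29516527), lay inside an H3K27me3 peak in every line, from 29504175 to 29591066 in D17, with authors' folds of 1.71, 2.01 and 2.27 in D17, Kc167 and S2. It was the only gene of the group with H3K27me3 in D17 and was also under H2AK118ub1 in D17 and S2. ND-51L1, whose window reaches the gene Smurf, had H3K36me3 in all 3 lines and H3K4me2 in D17 and S2. ND-49L had H3K36me2 in D17 and S2 and H3K36me3 in D17. ND-24L, ND-51L2 and ND-B14.5AL had H2AK118ub1 in D17 and no H3K36me3. In D17, H2AK118ub1 was at 37.8% of all genes and 31.8% of those of at most 2000 bp. ND-24L and ND-B14.5AL also had H3K4me2 in D17. The genes they are named after had H3K27ac in all 3 lines, H3K4me3 in D17 and S2, and peaks in 5 to 7, 4 to 5 and 6 to 9 lists of D17, Kc167 and S2.

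The other genes with H3K27me3 had it in 1 line and at the edge of their window. In Kc167 they were mRpL13, mRpL1, mRpL30 and ND-B18, and in S2 ND-13A. In each of these 5 the peak ended or began outside the gene body. For mRpL30, on X (4647871 to 4648646), it ended at 4647477 on the side of HLH4C, and for ND-B18, on X (15063733 to 15064926), it ended at 15063503 on the side of hiw. All 5 genes had H3K27ac in all 3 lines.

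A further 4 genes had no H3K27ac peak in D17, namely ND-AGGG, ND-MLRQ, mRpS25 and mRpS5. In S2 the further genes were ND-MLRQ, mRpS18C and mRpS5. All of them had H3K27ac in Kc167 and H3K4me3 in both D17 and S2. ND-MLRQ, mRpS5 and ND-AGGG all lie on 3L between 23339326 and 24977118 and have no other protein-coding gene in their window. A skipped peak number touches the window of mRpS5 in 35 of 50 lists. Its H3K4me3 peaks stood at percentile 15.3 in D17 and 24.7 in S2, those of ND-AGGG at 17.7 and 28.5, and those of ND-MLRQ at 29.1 and 38.5, all under the group's medians, while TrxN in S2 stood at percentile 95.7 at mRpS5.

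The families were alike in their active marks, and for the factors their intervals overlapped. H3K4me3 in D17 was present at 97.9% of the 47 mRpL, 100% of the 26 mRpS and 100% of the 34 ND- genes without paralogues. Among active genes, TrxN in S2 was present at 82.6% of mRpL (interval 68.6% to 92.2%), 75.0% of mRpS (53.3% to 90.2%) and 87.9% of ND- genes (71.8% to 96.6%). Psc in S2 was present at 41.3%, 25.0% and 27.3% of mRpL, mRpS and ND- genes, and Ph in Kc167 at 30.4%, 34.6% and 11.8%. The intervals of the 3 families overlapped for all factors in all lines. With 24 to 46 active genes per family they are wide and cannot show that the families are alike.

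The 7 nuclear genes for core subunits of complex I (ND-75, ND-51, ND-49, ND-30, ND-24, ND-23 and ND-20) most often had the commonest factors of the whole group, which were TrxN, Rad21 and, in Kc167, Spps and Pho. These subunits hold the flavin and the iron-sulfur clusters or frame the site where ubiquinone binds. All 7 had H3K27ac in the 3 lines and H3K4me3 in D17 and S2, and 0 of them had Ph, GAF or H3K27me3 in any list, where the shares of all genes were 17.6% to 32.5% for Ph, 22.4% and 24.0% for GAF and 10.1% to 21.7% for H3K27me3. Among all genes of at most 2000 bp, Ph was at 5.85%, 15.5% and 7.73% in D17, Kc167 and S2. GAF was at 8.29% and 9.35% of them in D17 and S2. ND-75 and ND-49 are longer than this. Over the whole group Ph was at 8.85%, 23.9% and 9.73% in D17, Kc167 and S2, and GAF at 13.3% in D17 and S2. With 7 genes, 0 cannot be told apart from these shares of the group. TrxN was at 53.1% of the group in D17 and 77.0% in S2, and Rad21 at 69.0%. In Kc167, Spps was at 78.8% of the group and Pho at 57.5%. Spps was present at 7 of 7 in Kc167, against 57.4% of all genes. In D17 and in S2 it was at 0 of 7, against 21.3% and 30.0%. Over all active genes Spps was at 30.6%, 88.3% and 44.2% in D17, Kc167 and S2. TrxN was present at 5 of 7 in D17 and 5 of 7 in S2, against 31.5% and 44.0%, and Rad21 at 5 of 7, against 45.3%. Over all active genes TrxN was at 57.5% in D17 and 77.9% in S2, and Rad21 at 79.5%. Pho was present at 4 of 7 in Kc167, against 42.1%, and at 1 of 7 in D17 and 1 of 7 in S2, against 16.4% and 21.0%. Psc was at 0, 2 and 1 of 7 in D17, Kc167 and S2, against 12.5%, 40.0% and 28.5%.

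Among the genes for the other respiratory chain complexes, 33 symbols do not end in L. TrxN was present at 55.9% of the 34 ND- genes without paralogues in D17 and at 57.6% of these 33 genes, and in S2 at 88.2% and 90.9%. Over all genes TrxN was at 31.5% in D17 and 44.0% in S2. Pho in S2 was present at 20.6% and 48.5%, against 21.0% of all genes. Ph in Kc167 was at 11.8% and 42.4%, against 32.5% of all genes. Among all genes of at most 2000 bp, Pho in S2 was at 10.5% and Ph in Kc167 at 15.5%. The ND- genes and the other respiratory chain genes were not matched for length.

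**Figure D5:**
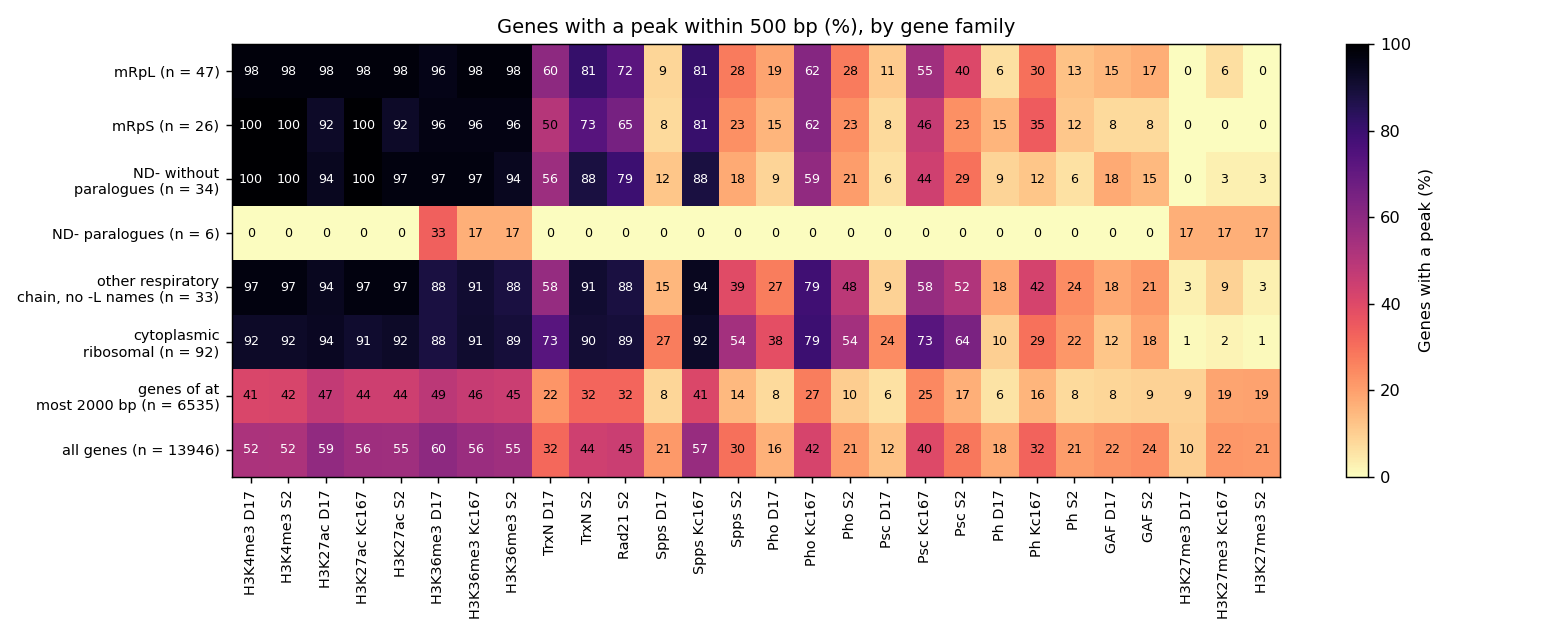
Share of genes with a peak within 500 bp (colour and printed number, %) for the mRpL, mRpS and ND- genes, the 6 ND- paralogues, the other respiratory chain genes, the cytoplasmic ribosomal protein genes, genes of at most 2000 bp and all genes (rows), for marks and factors in each line (columns). The row of paralogues is at 0 for H3K27ac, H3K4me3 and every factor, and the rows of the other families resemble each other in the active marks.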

How the data were processed

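The deposited files are 50 peak lists in dm6, 39 narrow and 11 broad, with 227654 peaks in all. Per the submitters' processing notes, reads were trimmed with Trim Galore 0.6.4, aligned with Bowtie2 2.3.5.1, handled with SAMtools 1.13 and bedtools 2.29.2, and peaks were called with MACS2 2.2.6. How the 2 libraries were joined and the input used is not given in the sources used here. The authors' peak caller gave each deposited peak a score, a fold enrichment as a ratio, and the −log10 of a q-value. The lowest fold was 1.5.

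Gene positions came from the RefSeq table of Release 6 plus ISO1 MT, which has no strand. Each gene body was widened by 500 bp and intersected with each list at a minimum of 1 bp; the highest fold in the window was ranked within its list, and the score was used only to shorten lists. No test was made, because no list holds replicate values. Named genes were those with no H3K27ac or any H3K27me3, the 5 with the most factors in each line, the highest of each factor, the paralogues and the core subunits; ND-39, mRpL1, ND-MLRQ, mRpS5, mRpS25, mRpS18C, ND-AGGG, mRpL50 and the genes with Ph or Psc in every line were added after their values were seen. The members and lists were chosen with earlier results of these data known. Overlaps were tested on simulated data, and 0 genes differed from bedtools 2.31.1 in 50 lists. Python 3.11.15, pandas 2.3.3, NumPy 2.4.6, SciPy 1.17.1 and matplotlib 3.10.9 were used. A planned search for promoter motifs was not run, and sequences were not used here.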

Additional observations from a re-analysis of the deposited data

How the results depend on the processing

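No paired analysis was possible because the lists hold no value per replicate. The 22 shares of the factors, H3K27ac and H3K4me3 stayed within the exact interval of the reported share with a flank of 1000 bp, with 500 bp around either gene end and without genes at a skipped peak number. So did these 22 and the 17 shares beside active marks with genes of at most 2000 bp, which was chosen after seeing the data, although the share of all genes then fell. The 17 shares beside active marks also did so with H3K36me3 as the mark, and the 17 median percentiles with the mean fold. The gene body alone gave 3.54% for Ph, 7.96% for Pho and 5.31% for GAF in D17 and 4.42% for GAF in S2, against 14.7%, 13.6%, 18.8% and 20.1% of all genes. Equal list lengths gave 82.3% for H3K27ac, 54.0% for TrxN and 16.8% for Psc in S2, against 48.9%, 32.5% and 19.3%, and in Kc167 12.4% for Ph, 15.9% for Psc, 24.8% for Pho and 27.4% for Spps, against 20.2%, 19.3%, 21.3% and 32.8%. Psc in Kc167 and S2 and Spps in Kc167 thus turned from above to below all genes. With equal list lengths H3K27ac was in every line at 79.6%, against 43.2%. With the higher-scoring 50% of each list, H3K27ac was at 61.9% in Kc167 and 70.8% in S2, against 41.0% and 42.5%, and H3K4me3 at 78.8% in D17 and 78.8% in S2, against 35.0% and 35.3%. Ph was then at 3.54%, 11.5% and 3.54% in D17, Kc167 and S2, against 10.7%, 18.6% and 11.8%, Pho at 6.19%, 31.9% and 12.4%, against 8.36%, 25.3% and 11.7%, and Spps at 1.77%, 29.2% and 7.96%, against 12.2%, 33.6% and 16.4%. Psc was at 22.1% in Kc167 and 13.3% in S2, against 24.0% and 15.9%, so these and Spps in Kc167 turned here too. TrxN was at 21.2% in D17 and 38.9% in S2, GAF at 5.31% and 4.42%, and Rad21 at 42.5%, against 17.2%, 26.6%, 14.6%, 15.3% and 30.3% of all genes. Only 7 genes of the group have no neighbour in their window. Of these, H3K27ac was at 28.6%, 71.4% and 42.9% in D17, Kc167 and S2, against 24.1%, 23.9% and 22.7% of all such genes, H3K4me3 at 71.4% in D17 and 71.4% in S2, against 19.7% and 18.7%, and TrxN at 28.6% in D17 and 57.1% in S2, against 12.9% and 21.5%. The gap for H3K27ac in D17 was thus 28.6% against 24.1%, where over the whole group it was 90.3% against 58.7%. The 7 genes are ND-B17, ND-75, ND-MLRQ, ND-AGGG, mRpS5 and the paralogues ND-20L and ND-24L. Those without H3K27ac in D17 were ND-MLRQ, ND-AGGG, mRpS5 and both paralogues, which are named above for lacking it. Only the paralogues lacked H3K4me3. With this makeup, the 28.6% cannot be carried over to the other genes of the group. Ph was at 0%, 14.3% and 0%, against 17.1%, 25.1% and 21.0%, Pho at 0%, 42.9% and 14.3%, against 13.7%, 23.6% and 15.8%, Psc at 0% in D17 and 28.6% in Kc167, against 15.0% and 28.3%, Spps at 0% in D17 and 14.3% in S2, against 21.5% and 26.7%, GAF at 0% in D17 and 0% in S2, against 21.6% and 23.0%, and Rad21 at 57.1%, against 24.6%. The cause was not tested. Library depth is unknown, so an absent peak does not show an absent protein.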
